A study of Mus musculus with 6 samples.

Results

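The pan-endothelial genes are a given list of 35 genes that mark the cells lining blood vessels. Each was found on the arrays through the RefSeq accession of its probes, and where a gene had several probes the one with the highest mean processed signal was used. All 35 members were found, with 44 probes between them. All 35 passed the filter on dim probes and were well above background on 6 of 6 arrays, so no member was lost or kept because of its level in 1 group. They stand among 25494 features tested on the whole array.

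The arrays measured total RNA of tibial cartilage from C57BL/6 mice, with 3 control mice and 3 mice labelled ADAM10 flox/flox-Col2a1-Cre, called mutants here, and 1 array per mouse. The mutants carry loxP-flanked alleles of Adam10, a membrane protease that cleaves Notch receptors and sheds other surface proteins, and a Cre recombinase under the promoter of Col2a1, which is active in cells of the chondrocyte lineage. The labels do not say which of these alleles the control mice carry, nor the age of the mice. The Cre driver targets cartilage cells and not vessels, so the members are read here in cells that the driver was not chosen to delete from. The question addressed was how transcripts of the cartilage and its attached tissue differ when Adam10 is deleted in that lineage.

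Cartilage itself holds no vessels. Blood vessels invade its hypertrophic end from the marrow side, and their endothelial cells are joined by VE-cadherin and claudin junctions, carry TIE and endoglin receptors on their surface, and are kept in their identity by transcription factors of the ETS and SoxF families. Sprouting vessels are led by tip cells, and arteries and veins differ in connexins, Eph receptors and apelin receptor. RNA prepared from tibial cartilage can hold transcripts of vessels taken along with it. Some members are also used by other cells, such as Cd34 of blood progenitors, Pecam1 and Icam2 of platelets and leukocytes, Fli1 of blood cells and Aqp1 of red cells. In such bulk RNA, fewer cells of a type and less RNA per cell cannot be told apart.

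Each value is a log2 signal set against the array's 75th percentile. A difference is the mutant mean minus the control mean on that scale, and its SE, 95% interval and p come from the limma fit. Levels of different probes are not compared. Adam10, given first as a check of the labels, read 1.61, 1.58 and 1.21 on controls 1 to 3 and 0.15, -1.70 and 0.31 on mutants 1 to 3, so all mutants lay below all controls. The single Adam10 probe may lie outside the deleted part. For the cartilage collagen Col2a1, whose promoter drives the Cre, the difference was -0.07 (SE 0.12). The share of spots well above background was 62.4% to 65.4%, no spot was saturated (0), and all arrays lay on 1 slide with 1 scan date. On that slide the controls and mutant 1 lay in row 1, and mutants 2 and 3 in row 2. No control lay in row 2, so slide row and group cannot be fully told apart. On the first principal component of all features control 1 stood at -55.4 and mutant 2 at 71.2, with the other 4 arrays between -14.1 and 15.2. Differences of the members are also given without mutant 2.

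Promoter sequences are shown for 4 members to set the gene that was higher in every mutant beside 3 that were lower on average. The RefSeq table (build GRCm38.p6) held promoters of 17 of the 35 members. The 250 bases before the start of Emcn (chr3:137340828-137341077, plus strand), Eng (chr2:32646345-32646594, plus strand), Tie1 (chr4:118489850-118490099, minus strand) and Ephb4 (chr5:137349859-137350108, plus strand) are written 5′ to 3′ on the gene's strand, with capitals at GGAAG or its reverse complement CTTCC, the core letters bound by ETS factors such as Erg and Fli1.
Emcn: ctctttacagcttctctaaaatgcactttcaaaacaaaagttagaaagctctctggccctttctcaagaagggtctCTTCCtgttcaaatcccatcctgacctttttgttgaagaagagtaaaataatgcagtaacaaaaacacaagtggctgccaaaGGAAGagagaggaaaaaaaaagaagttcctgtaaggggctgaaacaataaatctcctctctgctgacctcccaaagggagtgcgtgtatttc
Eng: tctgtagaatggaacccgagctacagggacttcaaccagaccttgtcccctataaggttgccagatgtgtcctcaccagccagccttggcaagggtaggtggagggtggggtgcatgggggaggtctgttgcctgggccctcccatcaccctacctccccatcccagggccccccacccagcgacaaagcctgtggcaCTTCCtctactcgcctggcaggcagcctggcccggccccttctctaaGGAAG
Tie1: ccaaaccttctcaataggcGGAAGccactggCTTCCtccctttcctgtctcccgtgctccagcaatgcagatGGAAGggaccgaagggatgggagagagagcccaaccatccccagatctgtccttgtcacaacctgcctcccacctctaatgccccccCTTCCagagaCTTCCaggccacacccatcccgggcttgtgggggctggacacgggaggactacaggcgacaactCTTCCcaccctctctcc
Ephb4: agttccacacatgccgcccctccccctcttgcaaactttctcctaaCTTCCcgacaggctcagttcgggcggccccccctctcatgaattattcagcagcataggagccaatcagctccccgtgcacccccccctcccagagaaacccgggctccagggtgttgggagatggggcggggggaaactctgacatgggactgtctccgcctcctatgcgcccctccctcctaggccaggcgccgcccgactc
GGAAG occurred 2 times in the Emcn window, 2 in Eng, 6 in Tie1 and 1 in Ephb4, over both strands. The shorter GGAA was not counted, so these numbers do not compare the ETS cores of the 4 windows. Over the members with a promoter it was found in 13 of 17 (76.5%), against 63.6% of 27025 promoters of all genes. The longer AGGAAG, which contains GGAAG, was in 10 of 17 (58.8%) against 29.2% of all promoters, and CGGAAG in 1 of 17 against 13.8%. Among longer or related ETS letters, AGGAAGT was in 2 of 17 against 7.8% of all promoters, and GGATGT was in 2 of 17 against 9.4%. The search for CGGAAGT found 0 of 17 against 5.0%, and that for CCGGAA found 0 of 17 against 12.2%. For Sox letters, ACAATG was in 0 of 17 member promoters against 11.0% of all, as were its longer forms AACAATG against 3.4% and ACAATGG against 3.1%. The GATA letters AGATAA were in 0 of 17 against 10.3%, and the E-box CACGTG was in 0 of 17 against 6.0%. All were searched on both strands, and those that contain or share GGAAG letters overlap. A match is a run of letters in this window and not a measured binding site.

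On the mean of the 3 mutants most of the endothelial genes were below the controls, and the difference came mainly from 1 mouse, mutant 2. On the median over the list, mutants 1 and 3 lay inside the range of the controls. Of the 35 members 32 had a difference below 0, against 40.0% of all tested features, and the median difference was -0.59 against 0.04 over all features. In the limma fit 0 members passed an adjusted p of 0.05, as was the case for 0 of 25494 features (0.0%), and the members' adjusted p ran from 0.987 to 0.99. At an unadjusted p below 0.05 there were again 0 members, where 1.88% of all features were lower and 1.55% higher; the smallest member p was 0.0577. All 35 intervals included 0, and 28 of them reached below -1. The members' standard errors had a median of 0.41, against 0.17 over all features.

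The array order behind these numbers was much the same from gene to gene. Taken as the median over members of the log2 signal minus the control mean, controls 1 to 3 stood at 0.17, 0.10 and -0.25, and mutants 1 to 3 at -0.17, -1.51 and -0.10. Mutants 1 and 3 thus lay within the range of the controls and mutant 2 lay far below it. Mutant 2 was the lowest of the 6 arrays for 30 of 35 members (85.7%), where it was the lowest for 18.7% of all features, and for 20 members it lay over 1 log2 unit below the next lowest array, as it did for 3.11% of all features. Control 3 was the lowest control for 31 of 35 members, against 24.6% of all features.

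**Figure D1:**
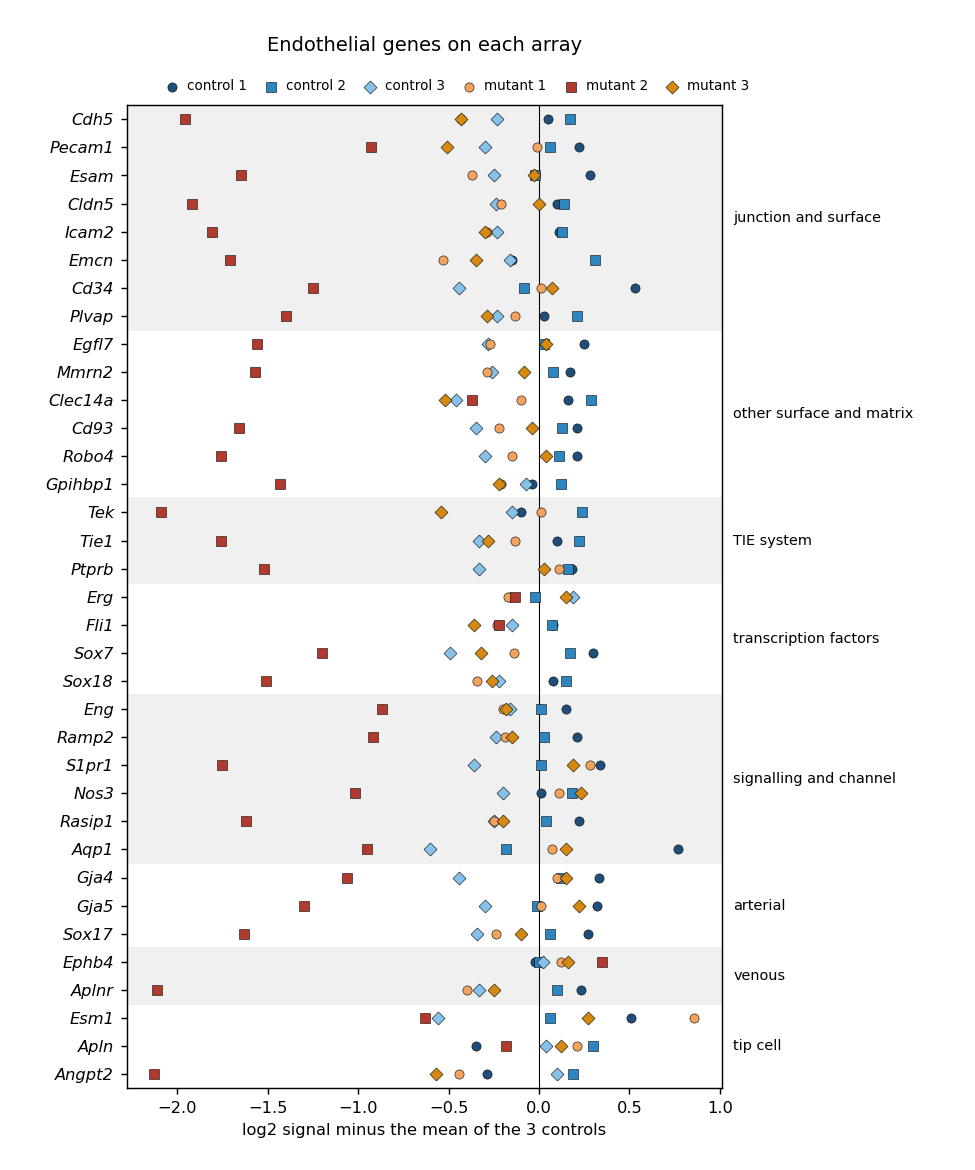
Log2 signal of each of the 35 endothelial genes (rows, grouped by role) on each of the 6 arrays, minus the mean of the 3 controls for that gene; each point is 1 mouse. The square of mutant 2 stands far to the left for 20 members, while for Erg, Fli1, Clec14a, Ephb4 and Apln it is not the lowest point.

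Without mutant 2, 25 of 35 members were below 0 (46.6% of all features) and the median difference was -0.19 (0.01 over all features). The difference of 23 members shrank by over 1.5 times in the same direction, and 7 turned above 0, namely Cd34, Ptprb, S1pr1, Nos3, Aqp1, Gja4 and Gja5. Without both mutant 2 and control 1, 24 of 35 members were below 0, against 14140 of 25494 features. The median was then -0.07, against -0.02 over all features. With all arrays, all mutants lay below all controls for 8 members, or 22.9%, where the same held for 3.75% of all features. They were Cdh5, Icam2, Emcn, Gpihbp1, Fli1, Sox18, Eng and Angpt2. With mutant 2 left out these 8 necessarily kept that order, and no further member joined them (8 of 35, against 7.84% of all features). In the opposite direction 1 member, Ephb4, had every mutant above every control, against 5.19% of all features.

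**Figure D2:**
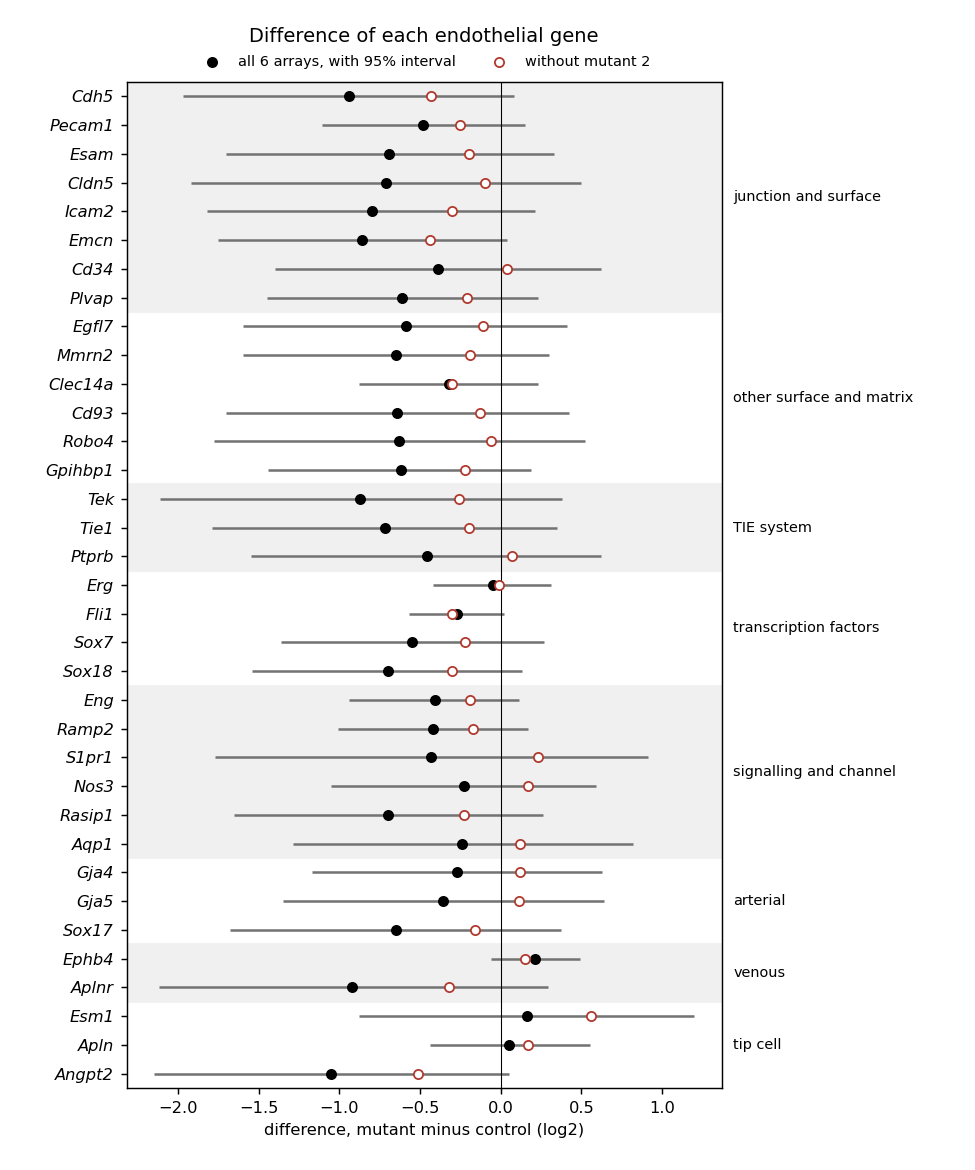
Difference between mutants and controls (log2) for each of the 35 genes from the limma fit: filled points with bars are the estimate and 95% interval over 6 arrays, and open points the estimate without mutant 2. Every interval crosses 0, and most open points lie nearer to 0 than the filled ones.

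All 8 genes of the endothelial junction and surface had differences below 0, and their median of -0.70 became -0.23 without mutant 2. Cdh5, which encodes VE-cadherin, the adhesion molecule of endothelial junctions, read 1.47, 1.59 and 1.19 on the controls and 0.99, -0.54 and 0.99 on the mutants. Mutants 1 and 3 had the same value, below the lowest control, and mutant 2 lay a further 1.53 down. The difference was -0.94 (SE 0.43, 95% interval -1.97 to 0.08), or 1.92-fold lower, with an adjusted p of 0.987. Without mutant 2 it was -0.43, with an unadjusted p of 0.0386. In that refit 0 members passed the adjusted threshold, and 470 of 25494 features were lower at an unadjusted p below 0.05.

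Emcn, the sialomucin endomucin of capillaries, sinusoids and veins, read -0.74, -0.28 and -0.75 on the controls and -1.12, -2.30 and -0.94 on the mutants. Its groups did not overlap, with mutant 3 just under controls 1 and 3. The difference was -0.86 (SE 0.37, 95% interval -1.75 to 0.04), and -0.44 without mutant 2. Icam2, an adhesion molecule of resting endothelium, read 2.61, 2.63 and 2.27 on the controls and 2.21, 0.69 and 2.20 on the mutants. Control 3 lay only slightly above mutants 1 and 3, and the difference of -0.80 (SE 0.42) became -0.30 without mutant 2.

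Pecam1, the junctional molecule CD31 that is also on platelets and leukocytes, read -0.29, -0.45 and -0.81 on the controls and -0.52, -1.44 and -1.02 on the mutants. Mutant 1 lay inside the controls' range, so the groups overlapped, with a difference of -0.48 (SE 0.26), or -0.25 without mutant 2. The other junction and surface members also overlapped between groups. Cldn5, the claudin of endothelial tight junctions, differed by -0.71 (SE 0.50), or -0.10 without mutant 2. The adhesion molecule Esam differed by -0.69 (SE 0.42), or -0.20 without that array. Plvap, which forms the diaphragms of fenestrated endothelium, differed by -0.61 (SE 0.35), and by -0.21 without mutant 2. Cd34 differed by -0.39 (SE 0.42), with its highest value, 4.66, on control 1, and stood at 0.04 without mutant 2.

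All 6 other surface and matrix members had differences below 0, with a narrow span of -0.65 to -0.32 and a median of -0.63 (-0.16 without mutant 2). Gpihbp1 anchors lipoprotein lipase in capillaries, and it read 1.84, 2.00 and 1.81 on the controls and 1.67, 0.45 and 1.66 on the mutants. Its groups did not overlap, the controls agreed closely (SD 0.10), and the difference was -0.62 (SE 0.34) with all arrays and -0.22 without mutant 2. Egfl7, a secreted matrix protein of endothelium, and Mmrn2, a multimerin of the vessel matrix that binds Clec14a and Cd93, differed by -0.59 (SE 0.42) and -0.65 (SE 0.40). The lectin-like receptor Cd93 stood at -0.64 (SE 0.44) and Robo4, an endothelial guidance receptor, at -0.63 (SE 0.48). For those 4 genes mutant 2 lay between 1.28 and 1.46 below the next array, and mutants 1 and 3 lay among the controls or just beneath them. With mutant 2 left out Egfl7 stood at -0.11, Mmrn2 at -0.19, Cd93 at -0.13 and Robo4 at -0.06.

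Clec14a, a receptor of sprouting endothelium, read -2.24, -2.11 and -2.86 on the controls and -2.50, -2.77 and -2.92 on the mutants, so that mutant 2 lay above control 3. Its difference of -0.32 (SE 0.23) was -0.30 without mutant 2. A second, dimmer Clec14a probe, above background on 2 of 6 arrays, had its lowest value of -6.56 on mutant 2.

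All 3 genes of the TIE system were below 0. Tek, the angiopoietin receptor TIE2, read -2.42, -2.08 and -2.47 on the controls and -2.31, -4.41 and -2.86 on the mutants. Mutant 1 was among the controls, mutant 3 lay below them and mutant 2 lay 1.55 under mutant 3, giving a difference of -0.87 (SE 0.52, 95% interval -2.11 to 0.38), and -0.26 without mutant 2. Tie1, the related orphan receptor, differed by -0.72 (SE 0.44), or -0.20 without mutant 2. Ptprb, the phosphatase VE-PTP that restrains TIE2, differed by -0.46 (SE 0.45) and stood at 0.07 without mutant 2.

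Mutant 2 was the lowest array for 2 of the 4 transcription factors in this group, the SoxF genes, and not for the ETS genes Erg and Fli1. Erg, the ETS factor that maintains endothelial identity and is also expressed in articular cartilage, read -0.89, -0.75 and -0.54 on the controls and -0.90, -0.86 and -0.58 on the mutants. The groups overlapped fully and the difference was -0.05 (SE 0.15, 95% interval -0.42 to 0.31), or -0.01 without mutant 2. Fli1, the other ETS member, read 0.67, 0.66 and 0.44 on the controls and 0.36, 0.37 and 0.23 on the mutants.

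All 3 Fli1 mutants lay below the controls within a span as tight as theirs (SD 0.08 and 0.13), and mutant 2 was the highest of them. The difference was -0.27 (SE 0.12, 95% interval -0.57 to 0.02), with an adjusted p of 0.987, and it was -0.30 without mutant 2. The SoxF factors, by contrast in array order, had mutant 2 lowest. Sox18 read 0.11, 0.18 and -0.19 on the controls and -0.31, -1.48 and -0.23 on the mutants, without overlap, and its difference was -0.70 (SE 0.35), or -0.30 without mutant 2. Sox7 differed by -0.55 (SE 0.34), with mutants 1 and 3 inside the controls' range, and by -0.22 without mutant 2. Ets1, an ETS gene that is not a member, had its lowest value, 0.62, on mutant 2, against 0.7 on mutant 1. The difference between the ETS and SoxF genes was not tested.

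The 6 receptors, signalling proteins and the water channel all had differences below 0, their median being -0.42. Without mutant 2 only 3 of the 6 did, and the median was -0.03. Eng, the TGF-beta co-receptor endoglin, read 1.13, 0.99 and 0.82 on the controls and 0.78, 0.11 and 0.80 on the mutants. Mutants 1 and 3 lay a little under control 3, and the difference of -0.41 (SE 0.22) was -0.19 without mutant 2. Rasip1, a Ras-interacting protein needed for vessel lumens, differed by -0.70 (SE 0.40), or -0.23 without mutant 2. Ramp2, which turns the calcitonin-like receptor into an adrenomedullin receptor, differed by -0.42 (SE 0.24), or -0.17 without that array.

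S1pr1, the sphingosine 1-phosphate receptor, had the widest error of all members. Its difference was -0.43 (SE 0.56), and 0.23 without mutant 2. Nos3, the endothelial nitric oxide synthase, stood at -0.23 (SE 0.34) and 0.17 without mutant 2. Aqp1, the water channel of endothelium and red cells, read 5.65, 4.70 and 4.28 on the controls and 4.95, 3.93 and 5.03 on the mutants, with a difference of -0.24 (SE 0.44), or 0.12 without mutant 2. Its control values spanned more than those of any other member (SD 0.70) and control 1 was the highest.

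The arterial genes were all below 0 with mutant 2 included, and their groups overlapped. Gja4, a connexin of arterial endothelium, read 0.47, 0.26 and -0.30 on the controls and 0.24, -0.92 and 0.29 on the mutants. Gja5, another arterial connexin, read -1.64, -1.97 and -2.26 on the controls and -1.95, -3.26 and -1.74 on the mutants. For both connexins mutants 1 and 3 lay inside the controls' range, with differences of -0.27 (SE 0.37) and -0.36 (SE 0.41) that turned to 0.12 and 0.11 without mutant 2.

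Sox17, the SoxF factor of arteries, read -0.79, -1.00 and -1.40 on the controls and -1.30, -2.69 and -1.16 on the mutants. Mutant 2 alone left the controls' range, and the difference of -0.65 (SE 0.42) was -0.16 without it. A second probe of Gja5, for another RefSeq transcript and above background on 5 of 6 arrays, was opposite in sign at 0.23. Erg was the other of 9 members with a second probe whose probes disagreed in sign, the second standing at 0.01, and for the other 7 the signs agreed.

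The venous genes went opposite ways. Ephb4, the receptor of ephrin B2 on veins, which osteoblasts also express, read 1.44, 1.46 and 1.48 on the controls and 1.58, 1.81 and 1.62 on the mutants. Every mutant was above every control and mutant 2 was the highest array, but the difference was small, 0.21 (SE 0.12, 95% interval -0.06 to 0.49), or 1.16-fold higher, with an adjusted p of 0.987, and it was 0.15 without mutant 2. On a second Ephb4 probe the groups overlapped, with a difference of 0.12.

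Aplnr, the apelin receptor of veins and sprouts, read 0.26, 0.13 and -0.30 on the controls and -0.37, -2.08 and -0.22 on the mutants. Mutant 2 lay 1.71 below the next array, the widest gap of any member, and the difference was -0.92 (SE 0.50), or -0.32 without that array.

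Tip-cell genes did not share a direction. Esm1, the secreted proteoglycan endocan of sprouting tips, read 0.42, -0.03 and -0.65 on the controls and 0.77, -0.72 and 0.18 on the mutants. Both groups were wide, and the difference was 0.16 (SE 0.43, 95% interval -0.88 to 1.20), or 0.56 without mutant 2. Apln, the ligand of Aplnr, read 0.74, 1.39 and 1.13 on the controls and 1.30, 0.91 and 1.21 on the mutants.

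All Apln mutants lay inside the range of the controls, with a difference of 0.05 (SE 0.20, 95% interval -0.44 to 0.55), or 0.17 without mutant 2. Angpt2, the angiopoietin that tip cells release and that opposes TIE2 activation, read -1.04, -0.56 and -0.65 on the controls and -1.19, -2.88 and -1.32 on the mutants. No mutant overlapped the controls. At -1.05 (SE 0.46, 95% interval -2.15 to 0.05), which is 2.07-fold lower, the difference was the lowest of the 35. Its adjusted p with all arrays was 0.987. Without mutant 2 the difference stood at -0.51 with an unadjusted p of 0.0375, and 0 members passed the adjusted threshold in that refit.

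**Figure D3:**
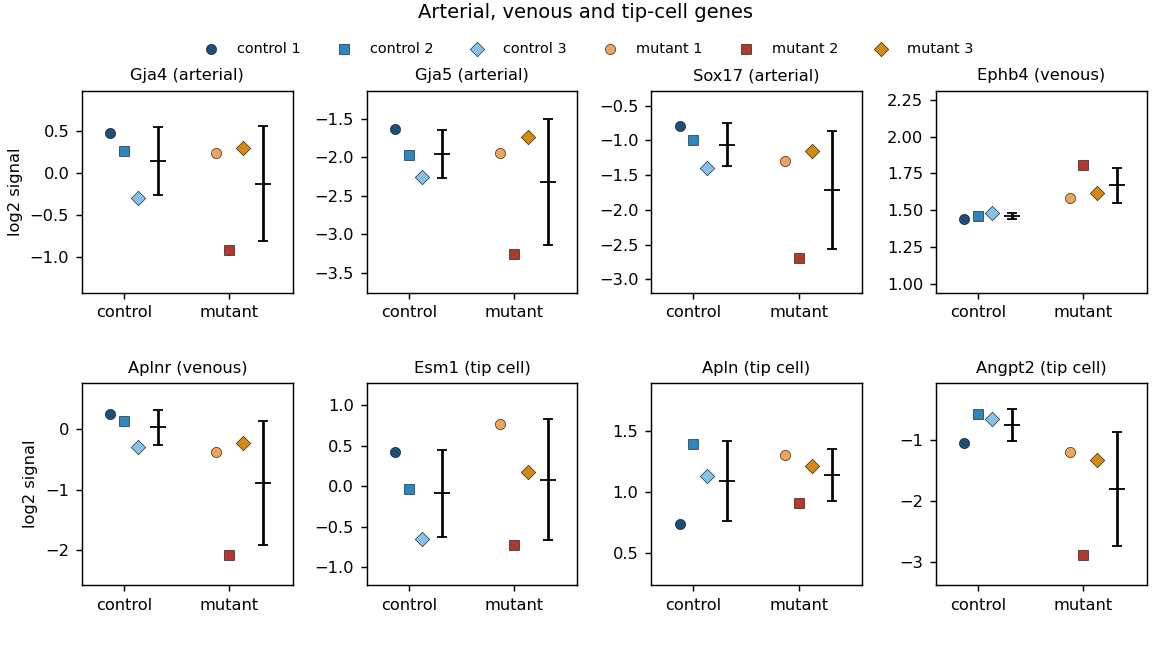
Log2 signal of the arterial, venous and tip-cell genes on each array, 1 point per mouse, with the group mean and SD as a bar beside the points; each panel has its own axis range. The groups separate for Ephb4 and Angpt2 and overlap for the other 6 genes.

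Other vascular genes, none of them members, were read from the same fit, in lists that share some genes. Of 25 further endothelial genes 23 were tested and 22 were below 0, with a median of -0.48, and 0 had an unadjusted p below 0.05. Without mutant 2, 16 of 23 were below 0 and the median was -0.05. The VEGF receptor Kdr, the main receptor of vessel growth, was the exception at 0.06 (SE 0.15), or 0.14 without mutant 2, with values of 3.63 to 3.74 on controls and 3.67, 3.60 and 4.01 on mutants, but its second, dimmer probe differed by -0.71 and had its lowest value on mutant 2. Flt1, the decoy VEGF receptor, stood at -0.58 (SE 0.40), or -0.12 without mutant 2, and Vwf, the clotting factor carrier, at -0.25 (SE 0.27), or 0.03 without it.

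Of 10 other arterial genes 8 were below 0 (7 of 10 without mutant 2, with a median of -0.04). Of these, 2 genes, Hey1 and Sema3g, had an unadjusted p below 0.05, where 1.88% of all features were lower at that p. Hey1, a Notch-induced transcription factor of arteries that skeletal cells also express, differed by -1.30 (SE 0.41) and by -0.86 without mutant 2. Sema3g, a semaphorin of arterial endothelium, differed by -0.46 (SE 0.18), or -0.37 without it. All 6 other venous genes were below 0, with a median of -0.56 and none at an unadjusted p below 0.05. Without mutant 2, 5 of 6 were below 0 and the median was -0.21. Of 10 other tip-cell genes 7 were below 0, with a median of -0.11, and without mutant 2 also 7 of 10, with a median of -0.03. In that last list Adm, which encodes adrenomedullin, the ligand served by Ramp2, differed by 0.61 (SE 0.23), and by 0.42 without mutant 2. For Adm every mutant lay above every control, as held for 5.19% of all features. Of 9 tested angiogenic ligands 4 were below 0, with a median of 0.17, and 5 without mutant 2, with a median of -0.12. Vegfa, the ligand of Kdr, differed by 0.67 (SE 0.24), with the highest value, 3.39, on mutant 2, and by 0.40 without that array. Cxcl12, the chemokine of marrow stroma, differed by -2.08 (SE 0.53), or -1.51 without mutant 2. Each of these genes had an adjusted p of 0.987.

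The sinusoidal markers gave 2 of 7 tested genes lower at an unadjusted p below 0.05, against 1.88% of all features. All 7 were below 0, with a median of -0.92 (-0.12 without mutant 2). Gpr182, a receptor of sinusoidal endothelium, read -1.87, -1.98 and -1.78 on the controls and -3.42, -3.72 and -3.00 on the mutants. All its mutants lay below all controls, as held for 3.75% of all features. The difference was -1.51 (SE 0.20, adjusted p 0.836), or -1.34 without mutant 2. Stab2, a sinusoidal scavenger receptor, differed by -1.22 (SE 0.32), or -0.97 without that array. Whether these genes differ more than the members was not tested.

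Markers of other cells moved with the members to different degrees, and their part in the members' values was not tested. On mutant 2 the median level, relative to the controls' mean, was -2.28 for 9 macrophage genes, -2.44 for 10 osteoclast genes, -1.47 for 8 platelet genes and -1.17 for 10 mural cell genes. It was -1.71 for 9 adipocyte genes, -1.8 for 9 osteoblast genes and -2.75 for 10 skeletal muscle genes, against 0.58 for 10 chondrocyte genes. Each of these lists except the chondrocyte one thus had its lowest median on the array where the members were lowest. The summed linear signal of the macrophage genes, in units of the array's 75th percentile, was 33.5 to 42.3 on controls and 9.55 to 29.8 on mutants. That of the 35 members was 130 to 207 on controls and 68.8 to 164 on mutants, with 68.8 on mutant 2. For osteoclast genes it was 244 to 333 on controls and 35.9 to 167 on mutants, for platelet genes 12.6 to 20.3 and 5.58 to 14.3, and for chondrocyte genes 2550 to 3020 and 2750 to 3530.

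Blood cell markers followed another array order. The median level of 9 neutrophil genes was 1.64, 0.49 and -2.16 on controls 1 to 3 and -2.56, -1.43 and -1.03 on mutants 1 to 3, and that of 8 erythroid genes 1.76, 0.53 and -2.38, then -1.60, -1.13 and -0.97. In both lists control 3 was within or below the mutants, and mutant 2 was not the lowest. The 9 B lymphocyte genes ran likewise, at 0.95, 0.94 and -2.22 on the controls and -1.81, -1.52 and -0.84 on the mutants. Summed signals were 14.8 to 162 on controls and 11.8 to 27.3 on mutants for neutrophil genes, 46.6 to 272 and 48.9 to 89.7 for erythroid genes, and 3.56 to 14.0 and 2.87 to 4.46 for B lymphocyte genes. Skeletal muscle genes summed to 808, 111 and 111 on the controls and 472, 34.7 and 279 on the mutants, so muscle signal varied within both groups.

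In the lymphatic list Prox1, the defining transcription factor, Ccl21a and Reln were not among the tested features. Of the 4 tested genes of that list, which blood vessels or other cells also use, 3 were below 0 (2 of 4 without mutant 2). Of the adipocyte list 7 of 9 genes were below 0, with a median of -0.32, but without mutant 2 only 2 of 9 were, with a median of 0.26. The median difference of the osteoblast genes was -0.17, and 0.09 without mutant 2, which was the lowest array for 5 of those 9 genes. That of synovium and tendon genes was -0.26, and -0.11 without mutant 2.

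**Figure D4:**
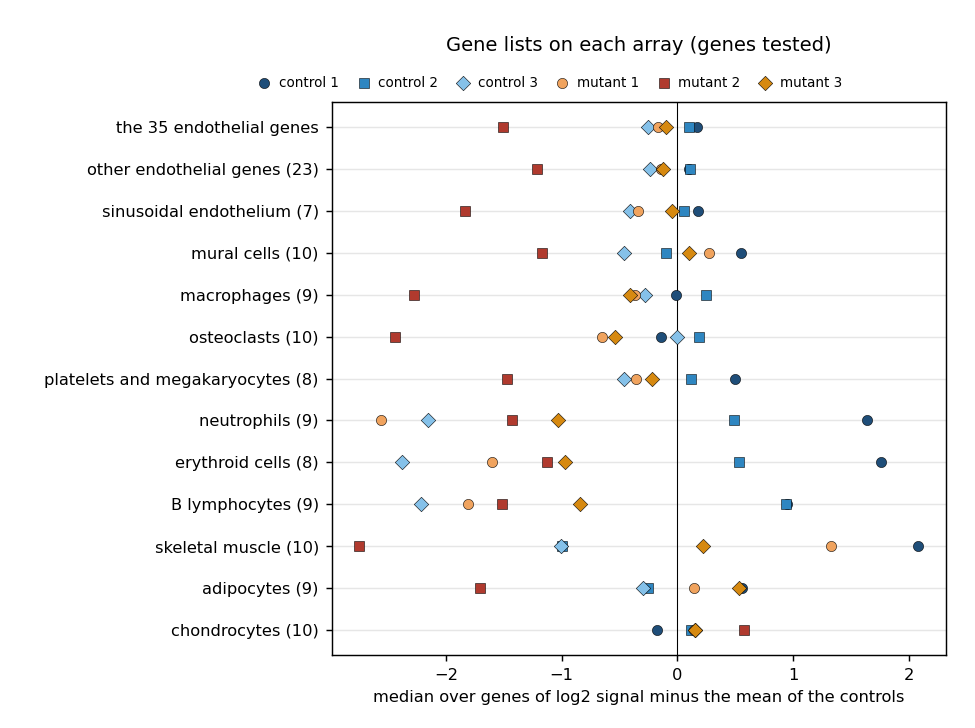
Median over the tested genes of each list of the log2 signal minus the mean of the controls, on each of the 6 arrays; numbers in brackets are genes tested. Mutant 2 is the lowest array for the 35 endothelial genes (-1.51) and for macrophage, osteoclast, mural and muscle lists, but not for neutrophil, erythroid or B lymphocyte lists, and it is the highest for chondrocyte genes.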

How the data were processed

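Total RNA of 6 mice (3 per group, by sample title) was hybridised to 1-colour Agilent arrays. Per the file headers and the submitters' processing notes, the authors' files came from Agilent Feature Extraction 10.7.1.1. Spot values were deposited as linear intensity, background-subtracted by that program and not normalized between arrays. The deposited value table reads as a linear ratio to about the 75th percentile of each array (r = 1 with the scaled signals) and was used as an alternative; its making is not given in the sources used here. Accessions without version were matched to RefSeq symbols (GRCm38.p6), naming 27656 of 55681 probes. Outlier and control spots were left out, the log2 processed signal was scaled to the array's 75th percentile, spots were averaged, and probes well above background on at least 3 arrays (35236) were kept, 1 per gene.

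The comparison used limma 3.58.1 under R 4.3.3 (lmFit, eBayes, two-sided, 4 residual and 2.42 prior degrees of freedom, Benjamini-Hochberg over all 25494 features, threshold 0.05). The fit was also run on simulated data with independent errors, the spread of the less variable features and no outlying array. The members varied more than that, so the simulation does not show how the fit performs on them. The series text calls the replicates separate mice; 6 arrays limit the precision. The members, lists and alternatives were chosen with earlier results of these data known. All members are named. Every array is printed for members whose groups do not overlap, for 5 defining genes (Cdh5, Pecam1, Emcn, Tek and Erg) and for arterial, venous and tip-cell genes. Of the related vascular lists, not the marker lists, genes at an unadjusted p below 0.05 are named. Aqp1, Clec14a, Kdr, Flt1, Vwf, Gpr182, Stab2 and the promoters printed were chosen after values were seen, as were the letters searched in them. The normexp alternative used the median spot signal, since the files read here carry no mean.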

Additional observations from a re-analysis of the deposited data

How the results depend on the processing

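Across the alternatives the members' median difference stayed below 0, from -0.78 to -0.07, and 0 members passed the adjusted threshold in any of 19 refits; with array weights 4 features of the whole table did (3 lower, 1 higher). The count of members below 0 ran from 24 to 33. Members lower at an unadjusted p below 0.05 numbered 0 as reported, 4 with normexp background correction and percentile scaling, 4 with normexp and quantile scaling, 2 scaled on the array median, 1 (Emcn) with probes above background on all 6 arrays, 5 with array weights (Cdh5, Emcn, Fli1, Sox18 and Angpt2), and 1 (Angpt2) without control 1 and mutant 2. Over all 25494 features the lower counts were 479 as reported, 556 with normexp and percentile scaling, and 553 with normexp and quantile scaling. They were 465 scaled on the array median, 2228 with array weights and 827 without control 1 and mutant 2. With probes above background on all 6 arrays the count was 418 of 23317 features. At that p, 1 member was higher with array weights (Esm1, 0.71; 1759 of all features) and 1 without control 1 and mutant 2 (Aqp1, 0.50; 1075 of all features). Leaving out 1 array gave 0 to 4 members lower at that p, where 213 to 762 of all features were lower. The medians were -0.78 to -0.19, with the median nearest 0 without mutant 2. The median was -0.28 with array weights and -0.17 on the slide row of the controls and mutant 1.

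Of 665 member differences under alternatives 39 changed sign, in 13 members. Some refits could not change any sign, so 39 of 665 does not measure stability. The block refit and the one with another eBayes setting alter only the errors. Those with another filter on dim probes kept the same probe for each member. With array weights the members that changed sign were Cd34 at 0.06, S1pr1 at 0.18, Aqp1 at 0.23, Gja4 at 0.02, Gja5 at 0.02 and Apln at -0.03. On that slide row alone they were Cd34 at 0.00, Tek at 0.01, Ptprb at 0.10, S1pr1 at 0.28, Nos3 at 0.11, Aqp1 at 0.08, Gja4 at 0.10 and Gja5 at 0.01. Without control 1 and mutant 2 they were Cd34 at 0.30, Egfl7 at 0.01, Robo4 at 0.04, Ptprb at 0.16, S1pr1 at 0.41, Nos3 at 0.17, Aqp1 at 0.50, Gja4 at 0.29, Gja5 at 0.27 and Apln at -0.01. Control 1 and mutant 3 lacked Y-linked signal (Ddx3y above Xist), so both groups were mixed in this. On the 4 arrays with Y-linked signal Apln stood at -0.16. On those arrays 33 of 35 members were below 0, and the median was -0.76 against 0.02 over all features. Leaving out 1 array in turn gave Cd34 -0.63 to 0.04, Ptprb -0.75 to 0.07, Erg -0.15 to 0.04, S1pr1 -0.78 to 0.23, Nos3 -0.46 to 0.17, Aqp1 -0.54 to 0.15, Gja4 -0.49 to 0.12, Gja5 -0.65 to 0.11, Esm1 -0.18 to 0.56 and Apln -0.12 to 0.20. The cause of each change was not tested.

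With the replicate number as a block 0 members passed. Each number holds 1 control and 1 mutant, so the block can change errors and p but not the differences. The 32 members below 0 and the median of -0.59 were therefore fixed in advance. The numbers share only a label: deviations of same-numbered arrays correlated at 0.204, 0.059 and -0.164. The block moved the count of all features at an unadjusted p below 0.05 from 479 lower and 396 higher to 371 and 360.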
